A study of Mus musculus with 16 samples.

Results

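Immediate early genes were followed through the RNA-seq libraries of cultured mouse brain microvascular endothelial cells (mBMEC). The 10 genes described here are Fos, Fosb, Jun, Junb, Egr1, Egr3, Nr4a1, Ier2, Ier3 and Dusp1. They are a list among the 54193 annotated genes in the files, chosen with earlier results of these data known. Each was measured as the sum of the counts of its transcripts. The cells came from the brains of adult Cdh5(PAC)-CreERT2/Pdcd10 fl/fl mice aged 8 to 10 weeks, in which the endothelial Cdh5 promoter drives a Cre recombinase that 4-hydroxytamoxifen (4-OHT) activates. Pdcd10 is the gene also called Ccm3, whose loss in brain endothelium causes cerebral cavernous malformations. Several animals were pooled for each culture.

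There were 6 groups, namely Ccm3 WT cells, which carried the same alleles but received no 4-OHT (3 libraries), WT cells with 10 µM propranolol, a blocker of beta-adrenergic receptors (WT+P, 2 libraries), WT cells with 100 nM rapamycin, an inhibitor of the kinase mTOR (WT+R, 2 libraries), and Ccm3 KO cells, which received 4-OHT, without drug (KO), with propranolol (KO+P) and with rapamycin (KO+R), in 3 libraries each. Both drugs were given for 24 h. The exposure to 4-OHT and the genotype went together in every library and cannot be told apart. The comparisons ask whether loss of Ccm3, either drug, or the drug in the absence of Ccm3 goes with another level of these genes.

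Immediate early genes are transcribed within minutes of a stimulus, such as serum, growth factors, cAMP, calcium or shear stress, without new protein synthesis, because the factors that bind their promoters are already in the cell. Most encode transcription factors, which pass the signal to a later wave of genes, or proteins that end the signal, and their mRNAs usually decay quickly. In endothelial cells they are known as early reporters of flow, growth factor and inflammatory signals.

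The libraries held 18.83 to 26.2 M counts each. The target of the recombinase, Pdcd10, was at 7.83 to 16.7 CPM (counts scaled to library size) in the 9 KO, KO+P and KO+R libraries and at 27.7 to 60.8 CPM in the WT, WT+P and WT+R libraries, except for the library labelled WT replicate 1, where it was at 11.5 CPM. That library goes against its label, so most calls of comparisons with WT, and several other values, are also given without it. The summed level of 12 endothelial markers was between 9031 and 17888 CPM, with 9031 to 14096 CPM in the propranolol libraries and 13885 to 17888 CPM in all others. All 7 microglia and macrophage markers and all 6 oligodendrocyte markers had a mean under 1 CPM over all libraries. So had 4 of 5 astrocyte and 4 of 5 neuron markers, among them Gfap, Aqp4, Rbfox3 and Snap25. The same held for 4 of 9 mural markers, among them Rgs5 and Kcnj8. The mural markers summed to 31.1 to 78.9 CPM in KO and 17.6 to 20.5 CPM in WT libraries, and the 6 fibroblast markers to between 4.8 and 202 CPM over all groups. Most of the mural sum in KO was the single gene Anpep. It was at 23.3, 23.5 and 62.3 CPM in KO and at 12.4, 8.37 and 6.19 CPM in WT libraries. In bulk RNA, fewer cells of a type and less RNA per cell cannot be told apart.

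The members differed widely in abundance. On the TPM scale, which divides by transcript length and so allows genes to be compared, the median level over the 16 libraries was highest for Dusp1 (552 TPM, range 344 to 1108), the phosphatase that inactivates MAP kinases. It was followed by Ier3 (281 TPM, 125 to 755), Junb (148 TPM, 107 to 276), Jun (129 TPM, 76.5 to 174) and Ier2 (89.8 TPM, 56.4 to 241). Nr4a1 was next (35.7 TPM, 5.83 to 172), and Fos (17.1 TPM, 4.76 to 50.6), Fosb (7.52 TPM, 2.70 to 14.3), Egr1 (5.23 TPM, 2.92 to 17.0) and Egr3 (0.507 TPM, 0.0566 to 6.17) were the least abundant. The ranges of all neighbours in this order overlapped. All 10 members passed the filter on low counts, and they would also have passed it on the untreated libraries alone, so none entered through a drug group.

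**Figure D1:**
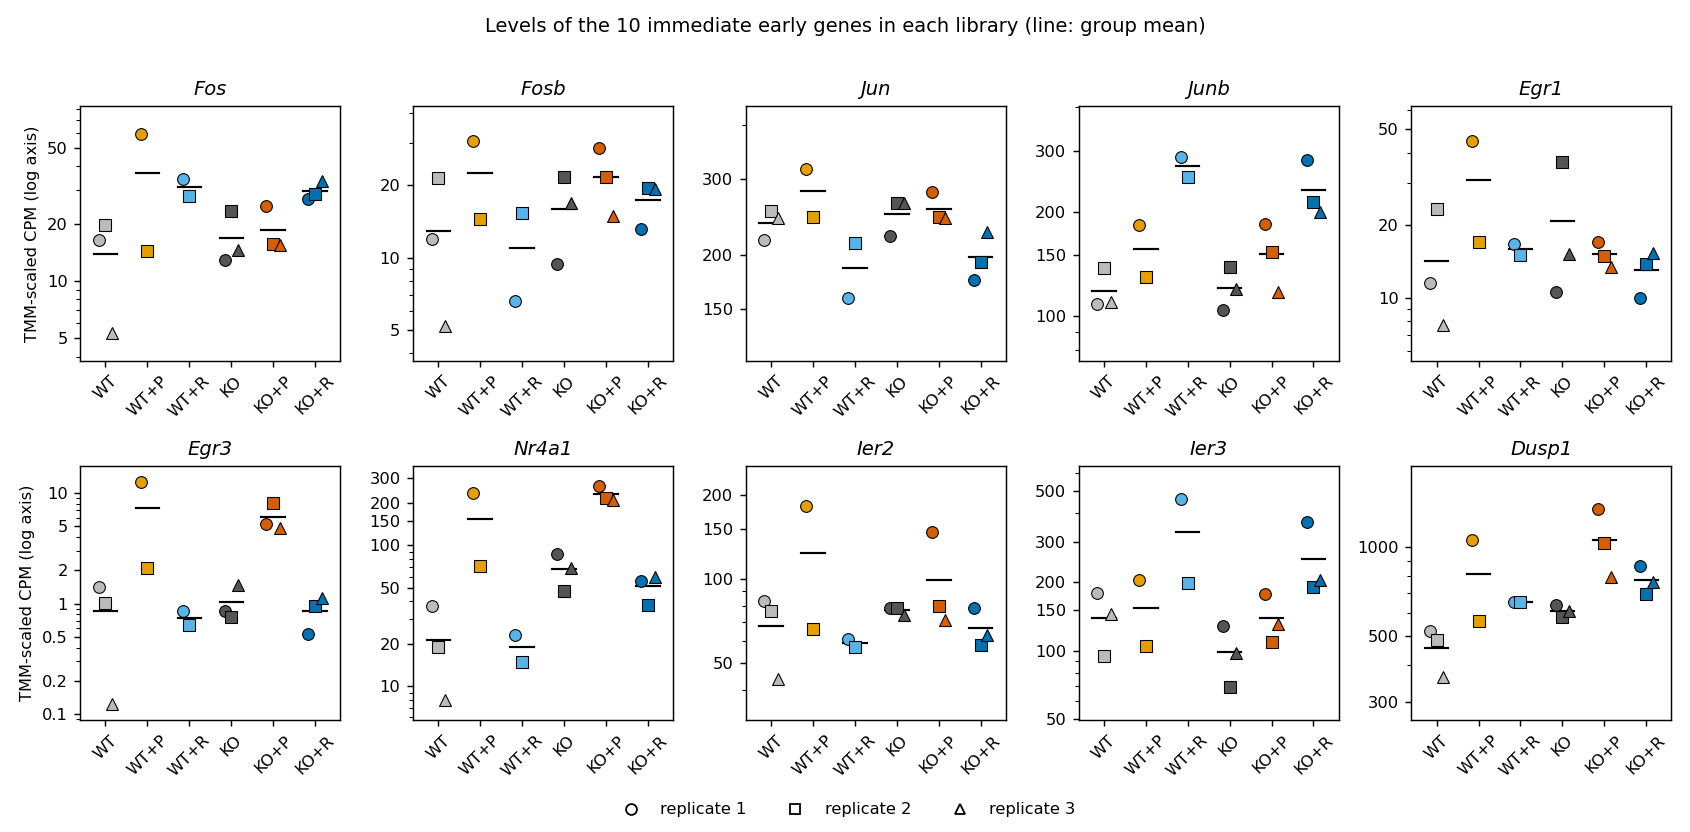
Level of each member in every library, in CPM scaled with TMM on a log axis, by group; symbols mark the replicate number and black lines the group means. Nr4a1 and Egr3 stood highest in the propranolol groups, Junb and Ier3 in the rapamycin groups, and the circle of WT+P replicate 1 was the highest point in the panels of 6 members.

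The members have different promoters. RefSeq promoter sequences were at hand for 7 of the 10 members, namely Fos, Fosb, Jun, Junb, Nr4a1, Ier3 and Dusp1, and the 250 bases upstream of the start were scanned on both strands for the cAMP response element TGACGTCA, its shorter core TGACG, the AP-1 site TGACTCA, the CArG box bound by serum response factor and the TATA box TATAAA. Nr4a1 and Dusp1 are shown because they had the highest levels with propranolol in both genotypes, and Junb and Ier3 because they had the highest levels with rapamycin. The sequences are in the direction of transcription and stop before any base that GENCODE places in an exon of the gene, and capitals mark matches to TGACG on either strand (CGTCA on the other). They were located by an exact match on GRCm39, at chr15:101164477-101164656 on the plus strand for Nr4a1, chr17:26727507-26727696 on the minus strand for Dusp1, chr8:85705378-85705627 on the minus strand for Junb and chr17:36132355-36132567 on the plus strand for Ier3.
Nr4a1: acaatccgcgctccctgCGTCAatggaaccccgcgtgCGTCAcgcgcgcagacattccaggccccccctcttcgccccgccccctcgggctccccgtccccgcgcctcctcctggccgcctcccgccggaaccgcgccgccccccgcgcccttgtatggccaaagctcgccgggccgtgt
Dusp1: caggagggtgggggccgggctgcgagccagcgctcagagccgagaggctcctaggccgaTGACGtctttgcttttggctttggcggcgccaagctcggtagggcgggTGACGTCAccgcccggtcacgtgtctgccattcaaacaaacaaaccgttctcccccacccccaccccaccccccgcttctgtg
Junb: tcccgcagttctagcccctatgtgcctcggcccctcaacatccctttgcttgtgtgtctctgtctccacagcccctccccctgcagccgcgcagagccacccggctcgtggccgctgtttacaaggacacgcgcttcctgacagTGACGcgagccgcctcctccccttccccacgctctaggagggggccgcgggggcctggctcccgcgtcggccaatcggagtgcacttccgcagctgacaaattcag
Ier3: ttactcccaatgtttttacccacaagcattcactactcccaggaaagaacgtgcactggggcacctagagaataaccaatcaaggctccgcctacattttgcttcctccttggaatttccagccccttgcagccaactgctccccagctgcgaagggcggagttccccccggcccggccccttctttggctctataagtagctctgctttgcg

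In the full 250 bases, Nr4a1 held 4 matches to TGACG, which start at positions −233, −213, −69 and −40 relative to the RefSeq start, the last 2 in bases that GENCODE places in an exon. Dusp1 held 3, which include both strands of its 1 match to TGACGTCA at −143 to −136. Of all 32851 promoters in the table, 17.8% held TGACG at least once, 0.69% held it 3 or more times, and 1.5% held TGACGTCA. Fos held 2 matches to TGACG and Fosb and Junb 1 each, and no match was found in the windows of Ier3 and Jun. Fos also had 1 match to TATAAA, which 12.4% of promoters hold. None of the 7 windows held a CArG box (1.5% of all promoters) or TGACTCA (4.5%). A match is a description of the letters and not a bound site.

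Over all 6 groups together, 3 of the 10 members differed in edgeR's quasi-likelihood F-test with Benjamini-Hochberg adjustment, against 7.68% of the 14838 genes tested. These were Nr4a1 (adjusted p = 0.00497), Junb (adjusted p = 0.0114) and Egr3 (adjusted p = 0.0196). Dusp1 (adjusted p = 0.0517) and Ier3 (adjusted p = 0.0917) did not pass, and with the replicate number as a block all 5 did, against 23.2% of genes tested, with adjusted p-values of 0.00836 for Dusp1 and 0.000177 for Ier3. Group accounted for 85.8% of the variance of log2 CPM for Nr4a1 and 82.5% for Junb, but for 31.6% for Egr1, 34.3% for Fosb and 37.3% for Ier2, where the median over all genes tested was 44.7%. For Ier3, group accounted for 62.8% and the replicate number for a further 35%, which left 2.3%. The variance of Ier3 thus lay almost wholly between groups and between replicate numbers, while 60.5% of that of Egr1 lay in neither.

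Libraries with the same replicate number deviated together from their group means, and the numbers were therefore taken to pair the libraries. With this block, further members passed in the drug comparisons, and these values are given beside the results below.

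No member passed the test for loss of Ccm3 in untreated cells (KO vs WT), where 0.00674% of all genes tested were called. A call required a fold change above 1.5 in either direction together with an adjusted p below 0.05. Nr4a1, an orphan nuclear receptor that acts as a transcription factor, was the 1 member with an unadjusted p-value under 0.05, which 6.07% of all genes had. DESeq2 also called no member. The median log2 fold change over the members was 0.27, against −0.01 over all genes.

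Nr4a1 was at 37.0, 18.8 and 8.00 CPM in the WT libraries (replicates 1, 2 and 3) and at 86.3, 47.7 and 69.4 CPM in the KO libraries. All KO libraries lay above all WT libraries, as they did for 6.69% of genes, and the library labelled WT replicate 1 was the highest of the WT group. KO exceeded WT by 1.67 on the log2 scale (SE 0.5, unadjusted p = 0.00542, adjusted p = 0.508 with edgeR), with 2.33 without the library labelled WT replicate 1 (adjusted p = 0.308) and 1.28 without WT replicate 3 (adjusted p = 1). With the replicate block it was 1.75 (SE 0.37, adjusted p = 0.0682). DESeq2 with the block called it (log2 fold change 1.76, adjusted p = 0.000173), as it did 2.67% of all genes.

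The ratio of KO to WT for Nr4a1 was 2.33, 2.53 and 8.67 for replicate numbers 1, 2 and 3. With rapamycin, KO+R libraries lay at 55.8, 37.7 and 59.7 CPM and WT+R libraries at 23.0 and 14.8 CPM, again without overlap, which 9.43% of genes showed in that direction. The log2 fold change of KO+R vs WT+R was 1.43 (SE 0.58, adjusted p = 0.807 with edgeR), and edgeR called 0% of genes in that comparison. With propranolol, KO+P libraries lay at 264, 216 and 212 CPM and WT+P libraries at 237 and 71.9 CPM, and these groups overlapped (log2 fold change 0.58, SE 0.55).

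Dusp1 also lay higher in all KO libraries (638, 579 and 606 CPM) than in all WT libraries (519, 484 and 363 CPM), as did 6.69% of genes. The log2 fold change of Dusp1 was 0.42 (SE 0.23, adjusted p = 0.941), or 0.51 without the library labelled WT replicate 1 (adjusted p = 0.933). Ier3, which encodes a stress-induced regulator of survival, was at 129, 69.2 and 97.5 CPM in KO and at 179, 94.3 and 145 CPM in WT libraries. The groups of Ier3 overlapped, but KO was lower than WT within each replicate number, at ratios of 0.719, 0.734 and 0.671. Its log2 fold change was −0.50 (SE 0.39, adjusted p = 0.996) and, with the replicate block, −0.50 with an SE of 0.12 (adjusted p = 0.0945), and −0.29 without the library labelled WT replicate 1 and without the block (adjusted p = 1). For the other 7 members the log2 fold change of KO vs WT lay between 0.03 for Junb and 0.55 for Egr1, each with an adjusted p of 0.996 or 0.997. That of Egr3 was 0.27 (SE 0.72), and 0.83 (SE 0.81) without the library labelled WT replicate 1, and was called in neither fit.

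With either drug present, the genotypes did not separate further. edgeR called none of the members in KO+P vs WT+P, where 0% of all genes were called and 0 members had an unadjusted p-value under 0.05, against 6.19% of all genes. In KO+R vs WT+R it called none either, and 1 member, Nr4a1, had an unadjusted p-value under 0.05, against 5.72% of all genes. DESeq2 called 0 members in both, and with the replicate block it called Nr4a1 in KO+R vs WT+R (log2 fold change 1.58, adjusted p = 0.00791) and 2.05% of all genes. edgeR with the block did not call it (1.56, adjusted p = 0.188).

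**Figure D2:**
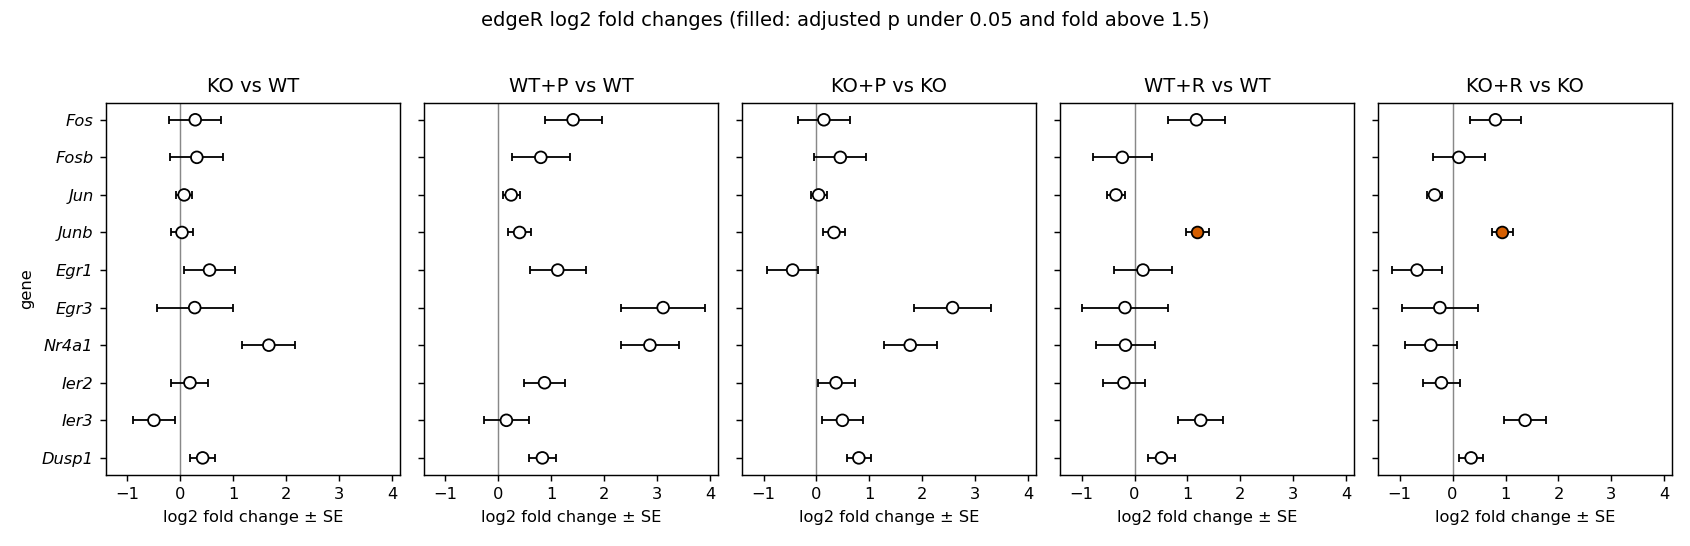
Log2 fold change of each member with its standard error from the edgeR fit of all 16 libraries, for loss of Ccm3 and for each drug in each genotype; filled points passed the test. Junb with rapamycin was the 1 member filled, in WT and in KO cells, while the points of Nr4a1 and Egr3 with propranolol lay farther from 0 but had wider errors.

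Propranolol went with the highest levels of Nr4a1, Egr3 and Dusp1, yet edgeR called none of the members in either genotype. In WT+P vs WT, 0.00674% of all genes were called, and 5 members had an unadjusted p-value under 0.05 (Nr4a1, Egr3, Dusp1, Fos and Ier2), all in the higher direction. Of all genes, 9.87% had such a p-value, and 6.7% in the higher direction. In KO+P vs KO, 0.00674% of all genes were called too, and 3 members had an unadjusted p-value under 0.05 (Nr4a1, Egr3 and Dusp1), also higher, against 12.6% of all genes and 6.93% in the higher direction. DESeq2 called Egr3 and Nr4a1 in both comparisons, and 0.802% and 1.11% of all genes. The median log2 fold change over the members was 0.85 in WT and 0.41 in KO cells, against 0 and −0.01 over all genes. The members were chosen with earlier results of these data known, so their excess over all genes is not independent evidence. The comparisons in WT and KO cells share no library. Libraries with the same replicate number were taken as paired, though, with correlated deviations of 0.45 and 0.68 between KO+P and WT+P. The comparisons are thus not independent of each other. The endothelial marker sum ran from 9031 to 13345 CPM in WT+P and from 9795 to 14096 CPM in KO+P libraries, against 13885 to 17888 CPM in the others. It was thus uneven between the propranolol libraries, and replicate 1 had the lowest sum in both groups. The part of this sum in the result was not tested.

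Nr4a1 was at 237 and 71.9 CPM in the WT+P libraries, against 8.00 to 37.0 CPM in WT. It was at 264, 216 and 212 CPM in the KO+P libraries, against 47.7 to 86.3 CPM in KO. Neither pair of groups overlapped, which 10.8% of genes in WT and 9.58% in KO cells showed in this direction, and every propranolol library exceeded its untreated partner of the same number, by 6.42 and 3.82 times in WT and by 3.06, 4.52 and 3.06 times in KO cells. The log2 fold change was 2.86 in WT (SE 0.55, adjusted p = 0.132) and 1.77 in KO cells (SE 0.5, adjusted p = 0.28) with edgeR. With the replicate block these were 2.71 (adjusted p = 0.0366), which passed with 0.0809% of all genes, and 1.81 (adjusted p = 0.0614), which did not. DESeq2 gave 2.85 (adjusted p = 0.000145) and 1.77 (adjusted p = 0.0229).

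The WT value of Nr4a1 leaned on single libraries. Without WT+P replicate 1 it was 1.76 (adjusted p = 1), without WT+P replicate 2 it was 3.48 (adjusted p = 0.0136), and without the library labelled WT replicate 1 it was 3.52 (adjusted p = 0.33). A fit that leaves a lone WT+P library assumes that it varies like the other groups. Under the block, and leaving out the library labelled WT replicate 1 as well, it was 3.07 (adjusted p = 0.222). Positive values were found in all of these fits.

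Most Nr4a1 counts came from transcript Nr4a1-201 (88.1% of the gene's counts over all libraries), whose start is the one shown above, and 11.6% from Nr4a1-202, which starts at 101151980 on chromosome 15, upstream. The share of Nr4a1-202 was 11.3% and 15.1% in WT+P and 8.2 to 12.5% in KO+P libraries, within the range of 5.8 to 22.5% in the WT and KO libraries, and 18.7% and 37.3% in WT+R. In counts, Nr4a1-202 had 53, 54 and 17 in WT and 579 and 275 in WT+P libraries, so both forms were higher there. The assignment of reads that fit both forms is an estimate.

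Egr3, a zinc-finger factor of the EGR family, was the least abundant member. It was at 12.7 and 2.09 CPM in WT+P, from 274 and 53 counts, against 1.43, 1.01 and 0.123 CPM in WT, from 31, 27 and 3 counts. It was at 5.25, 8.21 and 4.80 CPM in KO+P against 0.852, 0.759 and 1.47 CPM in KO libraries. No propranolol library overlapped the untreated libraries of its genotype, which 10.8% of genes in WT and 9.58% in KO cells showed in this direction. The levels of Egr3 gave log2 fold changes of 3.11 in WT (SE 0.79, adjusted p = 0.285) and 2.57 in KO cells (SE 0.73, adjusted p = 0.28) with edgeR. The block left both uncalled (adjusted p = 0.279 and 0.0943). Without the library labelled WT replicate 1 the WT value was 3.68 (adjusted p = 0.747).

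Salmon gave 39.6% of the Egr3 counts to a form with a retained intron and 54.9% to the coding form Egr3-204, and the share of the retained-intron form ran from 0 to 100% between libraries. The split between forms was thus uncertain at this depth. With coding transcripts alone, the log2 fold change was 4.37 in WT and 1.71 in KO cells (adjusted p = 0.503 and 0.65), and Egr3 no longer passed the test over all groups (adjusted p = 0.304). It did not pass that test without KO+P replicate 2 either (adjusted p = 0.0532).

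Dusp1 was at 1054 and 564 CPM in WT+P libraries, above the 363 to 519 CPM of WT, and at 1348, 1031 and 789 CPM in KO+P libraries, above the 579 to 638 CPM of KO. Such a separation was found for 10.8% of genes in WT and 9.58% in KO cells. The log2 fold changes of Dusp1 were 0.83 in WT (SE 0.26, adjusted p = 0.397) and 0.80 in KO cells (SE 0.23, adjusted p = 0.292). The KO value did not pass with the replicate block (0.77, adjusted p = 0.0733) or with DESeq2 (adjusted p = 0.0525), and passed with both together (0.76, adjusted p = 0.00221), where 6.29% of all genes were called. Within replicate numbers the ratio of KO+P to KO was 2.11, 1.78 and 1.30.

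For Fos and Fosb, both AP-1 factors, Egr1 and Ier2, the WT+P libraries differed widely. Fos was at 59.2 CPM in WT+P replicate 1 and at 14.4 CPM in WT+P replicate 2, against 16.5, 19.7 and 5.33 CPM in WT, so that the second library lay within the WT range. Fosb was at 30.6 and 14.4 CPM in WT+P and 5.21 to 21.4 CPM in WT libraries, and at 28.7, 21.7 and 14.9 CPM in KO+P and 9.41 to 21.6 CPM in KO libraries, so that replicate 1 was the highest in both propranolol groups. Egr1, the founding zinc-finger factor of its family, was at 44.7 and 17.0 CPM in WT+P and 7.67 to 23.3 CPM in WT libraries. Ier2, an immediate early nuclear protein, was at 181 and 66.2 CPM in WT+P and 43.5 to 82.9 CPM in WT libraries.

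WT+P replicate 1 held the highest level of all 16 libraries for 6 of the 10 members (Fos, Fosb, Jun, Egr1, Egr3 and Ier2), KO+P replicate 1 for Nr4a1 and Dusp1, and WT+R replicate 1 for Junb and Ier3. At the other end, WT replicate 3, for which no WT+P or WT+R partner exists, held the lowest level for 7 members (Fos, Fosb, Egr1, Egr3, Nr4a1, Ier2 and Dusp1). Without WT+P replicate 1, the log2 fold change of WT+P vs WT was 0.06 for Fos, 1.29 for Egr3, 0.31 for Dusp1 and −0.03 for Ier2. Without WT+P replicate 2, it was 2.10 for Fos, 3.89 for Egr3 and 1.21 for Dusp1. Each of these fits left 1 WT+P library, and the values depended on which was kept.

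In KO+P, Fos was at 24.7, 15.6 and 15.5 CPM, within the KO range of 12.8 to 23.2 CPM for the lower pair of libraries. Egr1 was at 17.1, 15.0 and 13.5 CPM in KO+P and at 10.6, 36.6 and 15.2 CPM in KO libraries. Fos was lower than its untreated partner in replicate number 2 of both genotypes (ratios 0.733 and 0.673), and so was Egr1 (0.732 and 0.409). Ier2 was at 147, 79.7 and 70.8 CPM in KO+P and 73.8 to 78.6 CPM in KO libraries. No single direction was shared by all replicate numbers for these 3 genes.

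The difference between genotypes in the response to propranolol, tested as an interaction, passed for no member with edgeR or with DESeq2, as for 0% of all genes. The lowest unadjusted p-value was that of Egr1 (interaction −1.57 on the log2 scale, SE 0.72, unadjusted p = 0.0477, adjusted p = 1), and it was the 1 member under 0.05, against 0.721% of all genes. For Nr4a1 the interaction was −1.10 (SE 0.73, unadjusted p = 0.155) and for Fos −1.27 (SE 0.73, unadjusted p = 0.107). With the replicate block in edgeR, the lowest among the members was Ier3 (0.42, SE 0.18, unadjusted p = 0.0401), and Egr1 was at an unadjusted p of 0.0562. No member passed in that fit either, where 0% of all genes did. The intervals are wide, so a difference in response between genotypes was not detectable here.

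**Figure D3:**
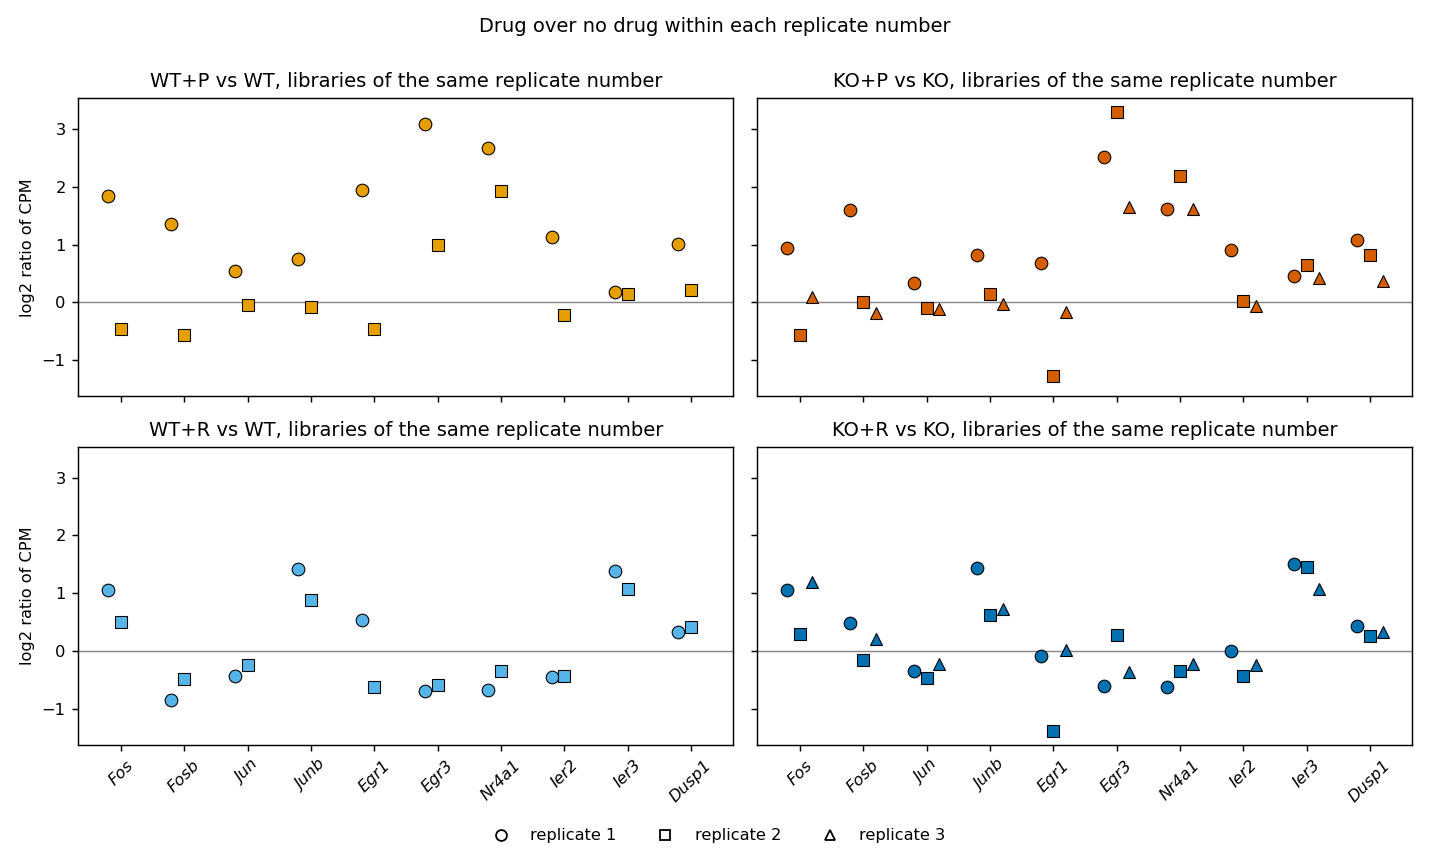
Log2 ratio of CPM between a treated library and the untreated library of the same genotype and replicate number, for each member and drug. With propranolol the points of replicate 1 lay above 0 for every member and those of the other numbers scattered around 0 except for Egr3, Nr4a1, Ier3 and Dusp1; with rapamycin all points of Junb, Ier3, Dusp1 and Fos lay above 0 and all of Jun and Nr4a1 below.

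With rapamycin, a single member passed the test, and it passed in both genotypes. Junb, an AP-1 subunit that often restrains proliferation, was higher in WT+R than in WT and in KO+R than in KO cells. In WT+R vs WT, 1.4% of all genes were called (0.647% higher), and in KO+R vs KO 1.51% (0.708% higher). The median log2 fold change over the members was 0 in WT and −0.05 in KO cells, against −0.01 and −0.02 over all genes. Without overlap between the groups, 4 members in WT and 4 in KO cells were higher (Junb, Ier3, Fos and Dusp1 in both), beside 14% and 10.9% of all genes. Jun was lower without overlap in WT cells, as were 14.7% of all genes.

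Junb was at 288 and 252 CPM in the WT+R libraries and at 108, 137 and 110 CPM in WT. It was at 283, 213 and 200 CPM in the KO+R libraries and at 104, 139 and 120 CPM in KO. The groups were apart in both genotypes, as they were in this direction for 14% of genes in WT and 10.9% in KO cells. The log2 fold change was 1.19 in WT (SE 0.22, adjusted p = 0.0183) and 0.94 in KO cells (SE 0.2, adjusted p = 0.0341) with edgeR, which is a rise of 2.28 and 1.91 times. It was higher in each treated library than in its untreated partner, by 2.66 and 1.84 times in WT and by 2.71, 1.54 and 1.66 times in KO cells.

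The direction of Junb held in every fit, but the call was lost in many of those that left out a library. In WT cells it passed without WT replicate 2 (adjusted p = 0.0288), while the adjusted p was 0.0718 without the library labelled WT replicate 1, 0.0719 without WT replicate 3, 0.201 without WT+R replicate 1, 0.0679 without WT+R replicate 2 and 0.0823 with only the WT and WT+R libraries in the fit. In KO cells it was 0.152, 0.0718 and 0.126 without KO replicates 1, 2 and 3, 0.121, 0.0678 and 0.062 without KO+R replicates 1, 2 and 3, 0.0527 without KO+P replicate 2 and 0.063 with the authors' effective lengths as an offset. The log2 fold change stayed between 1.09 and 1.31 in WT and between 0.80 and 1.05 in KO cells over the fits that each left out 1 library. With the replicate block, Junb passed in both (1.10, adjusted p = 0.00921, and 0.92, adjusted p = 0.0113). Of the bases in Junb exons, 13.4% overlap Prdx2 or Gm65321 on the opposite strand, from which unstranded libraries cannot separate them, so a part of its counts is uncertain.

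Ier3 had its own highest level with rapamycin, at 464 CPM in WT+R replicate 1, with 198 CPM in replicate 2. The WT libraries were at 179, 94.3 and 145 CPM. The KO+R libraries were at 366, 190 and 205 CPM, against 129, 69.2 and 97.5 CPM in KO, and the groups did not overlap in either genotype.

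For Ier3, the log2 fold change was 1.25 in WT (SE 0.43, adjusted p = 0.201) and 1.37 in KO cells (SE 0.4, adjusted p = 0.135), and neither passed. Ier3 was higher within each replicate number, by 2.59 and 2.10 times in WT and by 2.84, 2.75 and 2.10 times in KO cells. With the replicate block it passed in both genotypes, at 1.15 (SE 0.14, adjusted p = 0.00119) and 1.35 (SE 0.12, adjusted p = 0.0002), where 4.56% and 4.98% of all genes were called. It passed with the block also without the library labelled WT replicate 1 (1.09, adjusted p = 0.00938, and 1.36, adjusted p = 0.00043). Without the block and without WT+R replicate 1 its WT value was 0.50 (adjusted p = 0.895). Gm66231 overlaps 34.8% of its exonic bases on the opposite strand, so a part of its counts is uncertain too.

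Fos was also apart in both genotypes with rapamycin, at 34.4 and 27.9 CPM in WT+R and 26.8, 28.4 and 33.4 CPM in KO+R libraries, above the 5.33 to 19.7 CPM of WT and the 12.8 to 23.2 CPM of KO. These levels gave log2 fold changes of 1.17 in WT (SE 0.54, adjusted p = 0.394) and 0.81 in KO cells (SE 0.49, adjusted p = 0.562), and neither passed. Jun, the partner of Fos in AP-1, pointed the other way, with 159 and 213 CPM in WT+R against 216 to 252 CPM in WT, and 175, 192 and 225 CPM in KO+R against 221 to 264 CPM in KO libraries. Its log2 fold change was −0.35 in WT (SE 0.17, adjusted p = 0.412) and −0.34 in KO cells (SE 0.15, adjusted p = 0.358). Jun overlaps Junos on the other strand over 16.6% of its exonic bases.

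Dusp1 was at 652 and 650 CPM in WT+R and at 861, 694 and 761 CPM in KO+R libraries, above every untreated library of the same genotype, with log2 fold changes of 0.51 (SE 0.26, adjusted p = 0.443) and 0.35 (SE 0.23, adjusted p = 0.619). Nr4a1, Egr3, Egr1, Ier2 and Fosb overlapped with their untreated groups in both genotypes. For Nr4a1 the log2 fold change was −0.17 in WT (SE 0.56) and −0.41 in KO cells (SE 0.49). The WT value changed sign without the library labelled WT replicate 1, to 0.49 (SE 0.52). So did that of Egr3, from −0.18 (SE 0.82) to 0.39 (SE 0.89). The unadjusted p-value was under 0.05 for Junb, Ier3 and Fos in WT (12.6% of all genes) and for Junb, Ier3 and Jun in KO cells (12.5%).

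No member passed the interaction of rapamycin with the genotype with edgeR, which called 0% of all genes, or with DESeq2, which called 0.00674%, and 0 members had an unadjusted p-value under 0.05. For Junb the interaction was −0.25 (SE 0.29) and for Ier3 0.12 (SE 0.59) on the log2 scale.

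The members did not vary as a single unit across the 16 libraries. In log2 CPM, which is a description over libraries that share groups and cultures, Pearson's r was 0.88 between Egr3 and Nr4a1, 0.82 between Nr4a1 and Dusp1, 0.76 between Junb and Ier3 and 0.72 between Fos and Junb. It was −0.67 between Jun and Ier3 and −0.53 between Jun and Junb, although both Jun genes encode AP-1 subunits. Over all genes tested, those most like Junb were Mafk (r = 0.95) and Maff (r = 0.93), both small MAF transcription factors, and Pyroxd1 (r = 0.91). Those most like Jun were Jpt2 (r = 0.92), Fosl1 (r = 0.92), another AP-1 factor, and Map1b (r = 0.91).

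The genes most like Nr4a1 were Ptpn9 (r = 0.94), Ppp2r5b (r = 0.93) and Pdlim4 (r = 0.93), and those most like Egr3 were Zfp78, Mpp2 and Hivep2 (r = 0.90, 0.90 and 0.89). For Ier3 they were Pnrc1 (r = 0.97), Lmbr1l (r = 0.96) and Acbd4 (r = 0.96), and for Dusp1 Tpd52l2, Dnajb2 and Rpl22l1 (r = 0.95, 0.95 and 0.94). Ier2 was most like Zfyve21, Vcp and Dhdds (r = 0.95, 0.95 and 0.93), Fosb like Mcfd2, Uap1 and Lmna (r = 0.90, 0.89 and 0.88), Fos like Ubqln4, Zdhhc24 and Fubp1 (r = 0.89, 0.86 and 0.86), and Egr1 like Grk6, Arc and Gcfc2 (r = 0.86, 0.83 and 0.82). Fosl1, Maff, Mafk and Arc are themselves immediate early genes.

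Other immediate early genes were measured with a list of 45, of which 44 were tested. In the test over all groups, 15 of them passed, beside the 7.68% of all genes. Propranolol went with unadjusted p-values under 0.05 in the higher direction for 23 of the 44 in WT and 14 in KO cells, beside 6.7% and 6.93% of all genes, but edgeR called 0 of them. The median log2 fold change of the list was 0.76 in WT and 0.60 in KO cells, against 0 and −0.01 over all genes. As for the members, the medians of the list lay above 0 with propranolol, without a call for any gene. Without overlap between the groups, 16 genes were higher and 2 lower in WT, beside 10.8% and 10.3% of all genes. In KO cells these were 13 and 1, beside 9.58% and 9.11%. Some were raised mainly in WT+P replicate 1. Fosl1 was at 89.4 CPM there and at 24.9 CPM in WT+P replicate 2, against 15.1 to 26.8 CPM in WT. For Cebpb these were 126, 23.2 and 19.3 to 21.7 CPM. The list was chosen with earlier results of these data known, so its excess over all genes is not independent evidence.

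The paralogs of Nr4a1, the nuclear receptors Nr4a2 and Nr4a3, were among the 15. Nr4a2 was at 33.0 and 13.1 CPM in WT+P against 2.44, 4.63 and 2.42 CPM in WT, and at 40.2, 35.1 and 23.7 CPM in KO+P against 6.00, 8.16 and 6.93 CPM in KO libraries. Nr4a3 was at 9.94 and 1.85 CPM in WT+P against 0.299 to 0.828 CPM in WT, and at 6.08, 3.54 and 3.05 CPM in KO+P against 0.304 to 1.16 CPM in KO libraries. For both genes no propranolol library overlapped the untreated libraries of its genotype, as for 10.8% of genes in WT and 9.58% in KO cells in this direction.

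For Nr4a2 the log2 fold change was 2.86 in WT (SE 0.48, adjusted p = 0.116) and 2.23 in KO cells (SE 0.44, adjusted p = 0.137), and that of Nr4a3 was 3.52 (SE 0.72, adjusted p = 0.178) and 2.64 (SE 0.66, adjusted p = 0.219). Plk3, a stress-responsive kinase, was at 193 and 141 CPM in WT+P against 83.4 to 108 CPM in WT libraries (log2 fold change 0.83, SE 0.2, adjusted p = 0.275). In KO+P it was at 210, 233 and 143 CPM against 97.3 to 128 CPM in KO libraries (log2 fold change 0.79, SE 0.19, adjusted p = 0.202).

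**Figure D4:**
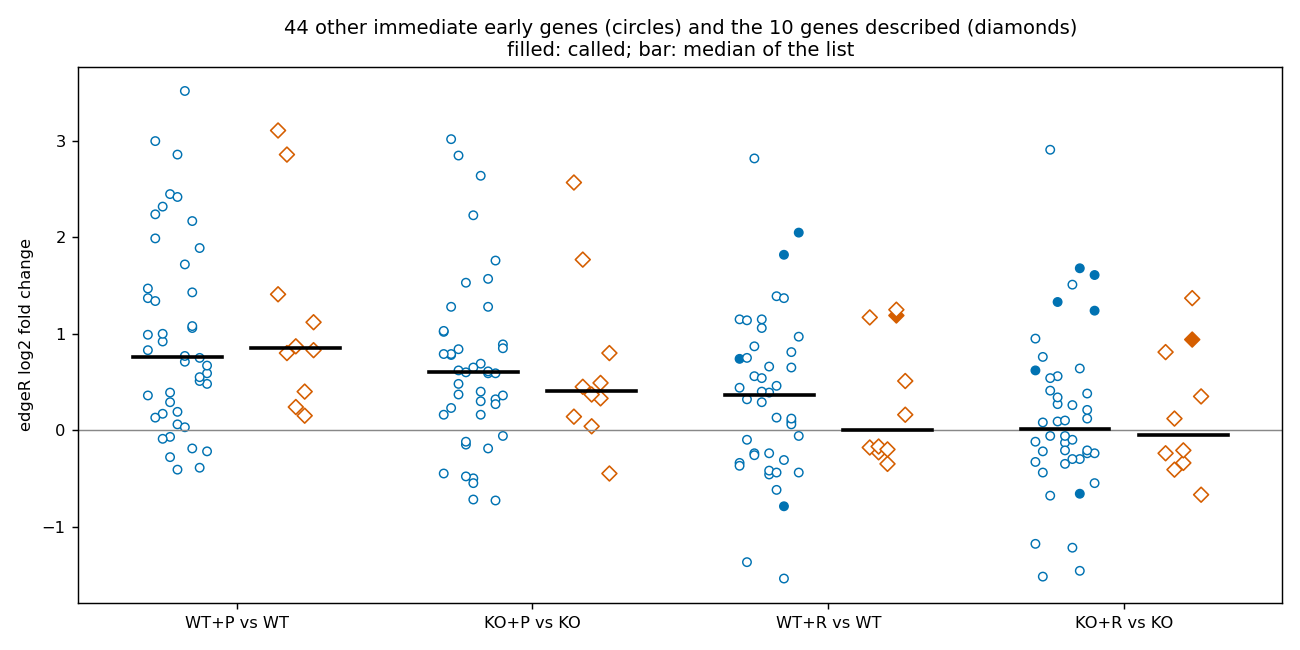
edgeR log2 fold changes of the 44 other immediate early genes (circles) and the 10 members (diamonds) for each drug in each genotype, with the median of each list as a bar; filled symbols passed the test. Medians lay above 0 with propranolol (0.76 and 0.60 for the other genes, 0.85 and 0.41 for the members) without any filled symbol, and filled symbols appear only with rapamycin.

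Rapamycin gave calls in this list. In WT cells 3 rose (Maff, Mafk and Ccn2) and 1 fell (Klf10), beside 0.647% of all genes that were called higher and 0.748% called lower. In KO cells 5 rose (Maff, Mafk, Ccn2, Sgk1 and Cebpd) and 1 fell (Klf10), beside 0.708% and 0.802%. Maff rose from 134, 173 and 99.4 CPM in WT to 575 and 546 CPM in WT+R (log2 fold change 2.05, SE 0.25, adjusted p = 0.00331) and from 131, 163 and 121 CPM in KO to 534, 384 and 345 CPM in KO+R (1.61, SE 0.23, adjusted p = 0.00628). Mafk rose by 0.74 (SE 0.14, adjusted p = 0.0194) and 0.62 (SE 0.12, adjusted p = 0.0267) on the log2 scale. Ccn2, a secreted matrix protein and target of YAP, rose by 1.82 (SE 0.33, adjusted p = 0.0182) and 1.68 (SE 0.3, adjusted p = 0.0185).

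Sgk1, a kinase downstream of mTORC2, was called in KO cells with a log2 fold change of 1.33 (SE 0.28, adjusted p = 0.0345), where the WT value was 1.15 (SE 0.31, adjusted p = 0.0863). Cebpd, a stress-induced transcription factor, was called in KO cells at 1.24 (SE 0.26, adjusted p = 0.0316), where the WT value was 0.97 (SE 0.28, adjusted p = 0.119). With the replicate block both rose in WT cells too (Sgk1 1.13, adjusted p = 0.00207, and Cebpd 0.96, adjusted p = 0.00664). Neither passed the interaction, so no difference between genotypes in the response to rapamycin was shown. In level, the block called Sgk1 lower in KO vs WT and in KO+P vs WT+P, beside 0.182% and 0.0876% of all genes called. Under the block without the library labelled WT replicate 1, KO vs WT was −0.95 for Sgk1 (adjusted p = 0.0207). The block called 7 genes of this list higher and 1 lower in each genotype, which added Ccn1 and Rgs2 to the 6 called in KO cells. Without the library labelled WT replicate 1, and without the block, Maff alone was called in WT cells (2.04, adjusted p = 0.02), where 0.627% of all genes were, and Mafk, Ccn2 and Klf10 were at 0.75, 1.88 and −0.63 (adjusted p = 0.0633, 0.058 and 0.0925). Klf10, an early target of TGF-beta, fell by 0.79 in WT (SE 0.17, adjusted p = 0.0334) and by 0.66 in KO cells (SE 0.15, adjusted p = 0.0409) on the log2 scale. The median of the list was 0.36 in WT and 0.01 in KO cells. Ccn1, a relative of Ccn2, was at 1909 to 3092 CPM in WT+R and 841 to 1098 CPM in WT libraries (log2 fold change 1.39, adjusted p = 0.1), and with the replicate block it passed (1.21, adjusted p = 0.00887).

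Genes that act before or after the members were measured as 3 further lists. Of 23 regulators of immediate early genes, among them kinases, ternary complex factors and CREB family members, edgeR called 1 lower with rapamycin in each genotype. Of all genes, 0.748% were called lower in WT and 0.802% in KO cells. None of the list was called in the other comparisons of a pair of groups. The gene called was Crem, a CREB family gene whose short form represses cAMP response elements. It fell by 0.79 in WT (SE 0.14, adjusted p = 0.0178) and by 0.65 in KO cells (SE 0.12, adjusted p = 0.0233) on the log2 scale. Without the library labelled WT replicate 1 the WT value was −0.67 and missed the threshold (adjusted p = 0.0532). Crem was at 28.4 and 34.1 CPM in WT+R against 45.1 to 62.8 CPM in WT libraries. With propranolol it was at 83.4, 81.9 and 82.9 CPM in KO+P against 61.1 to 74.1 CPM in KO libraries (log2 fold change 0.31, SE 0.12, adjusted p = 0.354). In the test over all groups 2 of the 23 passed, beside 7.68% of all genes. Map2k1, the kinase MEK1, was among them, near the threshold (adjusted p = 0.0465).

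Of 15 genes of ERK feedback and output, none was called by edgeR between any pair of groups compared without the replicate block. Spry4 and Spry2, inhibitors of receptor tyrosine kinase signalling, passed the test over all groups (adjusted p = 0.00467 and 0.039), beside 7.68% of all genes. Spry4 was at 75.5 and 36.3 CPM in WT+P against 18.7 to 25.5 CPM in WT, and at 13.4 and 13.5 CPM in WT+R libraries. It was at 74.4, 63.1 and 36.9 CPM in KO+P, 27.7 to 44.5 CPM in KO and 15.6 to 19.1 CPM in KO+R libraries. Its levels with propranolol and with rapamycin thus lay on opposite sides of most untreated libraries. On the log2 scale Spry4 differed from untreated cells by 1.29 with propranolol (SE 0.32, adjusted p = 0.275) and −0.77 with rapamycin (SE 0.33, adjusted p = 0.346) in WT cells, and 0.73 (SE 0.29, adjusted p = 0.354) and −1.03 (SE 0.29, adjusted p = 0.121) in KO cells. With the replicate block Spry4 fell with rapamycin in KO cells (−0.99, SE 0.21, adjusted p = 0.0175) and missed the threshold in WT cells (−0.92, SE 0.25, adjusted p = 0.053). Dusp4, a phosphatase that inactivates MAP kinases, rose in WT cells in that fit (1.29, SE 0.31, adjusted p = 0.0332), but its value was 0.57 (adjusted p = 0.82) when the library labelled WT replicate 1 was left out and no block was used.

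Of 14 cytoskeletal targets of serum response factor and its cofactor MRTF, which share the CArG box with many immediate early genes, 2 rose with rapamycin in WT cells and none was called in KO cells, where 4 had an unadjusted p-value under 0.05. The fit with the replicate block gave 7 that rose in WT (Vcl, Acta2, Tagln, Cnn2, Myl9, Flna and Tpm1) and 3 in KO cells (Vcl, Cnn2 and Tpm1). That fit called 4.56% of all genes in WT and 4.98% in KO cells. When the library labelled WT replicate 1 was left out as well, 2 stayed called in WT (Cnn2 and Myl9), beside 2.73% of all genes. In KO cells 4 were called then (Vcl, Cnn2, Myl9 and Tpm1), beside 4.77%. Vcl, which encodes vinculin of focal adhesions, rose by 1.29 (SE 0.29, adjusted p = 0.0469) and Acta2, smooth muscle actin, by 2.74 (SE 0.61, adjusted p = 0.0469) on the log2 scale in WT cells without the block. Neither passed without the library labelled WT replicate 1 (1.29, adjusted p = 0.123, and 2.34, adjusted p = 0.112). Acta2 is also expressed by mural cells, and the 9 mural markers summed to 11.5 to 17.1 CPM in WT+R and 17.6 to 20.5 CPM in WT libraries. These markers did not move together. Anpep was at 3.58 and 3.18 CPM in WT+R against 6.19 to 12.4 CPM in WT, and Myh11 at 1.07 and 6.66 against 0.615 to 1.57 CPM. The median log2 fold change of this list was 0.95 in WT and 0.63 in KO cells with rapamycin, and −0.56 for KO vs WT. In KO vs WT none was called and 3 had an unadjusted p-value under 0.05, all lower, beside 6.07% of all genes in either direction.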

How the data were processed

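RNA-seq was performed by the authors on poly(A) RNA of mBMEC cultures, with unstranded paired-end libraries. For each of the 16 libraries, the authors deposited an expected count and a TPM value (scaled by transcript length and library) for every transcript, beside its effective length, as Salmon output, in which ambiguous reads are split between transcripts by an estimate. The submitters' processing notes name Salmon 1.5.2, and its transcript index is not given in the sources used here. The authors deposited the expected counts without scaling across libraries. The effective lengths deposited by the authors correct transcript length for fragment size and entered 1 alternative, as an offset.

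The expected counts were summed over the transcripts of each gene with the GENCODE annotation of GRCm39, which named 139544 of 140789 transcripts. The rest held 0.39 to 0.57% of the counts and were left out. No column of values lacked a sample (0 columns unused). Sums were rounded to whole numbers. edgeR (4.0.16, in R 4.3.3) filtered genes with filterByExpr, which left 14838, scaled them with TMM (factors 0.934 to 1.041) and fitted all 6 groups in 1 quasi-likelihood model (10 residual degrees of freedom). The biological coefficient of variation was 32.3%, so precision was limited by the spread between cultures, and by counting error as well for Egr3. CPM are TMM-scaled, TPM were used as deposited, and log2 CPM for variances and correlations had a prior count of 2. The fit was tested on simulated data with known fold changes. p-values were adjusted over all genes tested.

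The 10 members and the other lists were chosen with earlier results of these data known. All members are named, and of the other lists the genes called in a comparison, at most 10 each by p. The 3 genes most like each member were taken over all genes tested.

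Replicate numbers were checked for pairing from the values. Same-numbered libraries deviated together from their group means, with correlations of 0.41 to 0.62 between KO+R and KO, 0.31 to 0.58 between KO+P and KO, and 0.19 to 0.62 between KO and WT. Over all 36 such pairs the median was 0.52, and −0.23 over the 70 pairs with different numbers. The labels do not state this pairing. The block used the replicate number and left 8 residual degrees of freedom and a biological coefficient of variation of 19%.

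Alternatives were DESeq2 (1.42.0), its size factors in edgeR, no filter, the replicate block, the effective-length offset, coding transcripts alone, no fold threshold, only the groups compared and leaving out each library. Leaving out both propranolol libraries of replicate number 1, and, for the genes of the other lists, the replicate block and the fits without WT replicate 1 were added after the values were seen. Promoters came from RefSeq (table on GRCm38.p6) and were placed on GRCm39 by exact match. The authors' images, RT-qPCR and mouse experiments were not analysed here.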

Additional observations from a re-analysis of the deposited data

How the results depend on the processing

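The counts of members called by edgeR moved with the setting as follows, and the cause was not tested. Shares of all genes called stand in parentheses. KO vs WT and KO+R vs WT+R had 0, and DESeq2 with the replicate block gave 1 in each, Nr4a1 (2.67% and 2.05%). WT+P vs WT had 0, with 2 by DESeq2 (0.802%), 1 without the filter on low counts (0.132%), 1 with the replicate block (0.0809%) and 2 by DESeq2 with the block (1.06%). KO+P vs KO had 0, with 2 by DESeq2 (1.11%) and 3 by DESeq2 with the block (6.29%). WT+R vs WT had 1, with 2 under the block (4.56%), 2 by DESeq2 with the block (6.59%), 2 under the block without the library labelled WT replicate 1 (2.73%) and 0 with only the groups compared (0.0576%). KO+R vs KO had 1, with 2 by DESeq2 (3.19%), 2 under the block (4.98%), 2 by DESeq2 with the block (7.57%), 2 under the block without that library (4.77%) and 0 with the effective-length offset (1.06%). The test over all groups had 3, with 6 by DESeq2 (20.5%), 5 without the filter (5.12%), 5 under the block (23.2%), 6 by DESeq2 with the block (38.7%) and 5 under the block without that library (18.9%). Fits that each left out 1 library gave 0 to 4 members in WT+P vs WT, where the 4 came without WT+P replicate 2 (3.54%), 0 to 1 in WT+R vs WT and 0 to 1 in KO+R vs KO. The log2 fold change of Ier2 in WT+P vs WT was 0.87, −0.03 to 1.42 in fits that each left out 1 library (−0.03 without WT+P replicate 1, 1.42 without WT+P replicate 2), and −0.04 without both propranolol libraries of replicate number 1, an alternative chosen after seeing the data. The block changed no other call of a member. Among the 73 other pairs of a member and a comparison, none of which had an unadjusted p-value under 0.05, the sign changed in 84 of 1168 values that left out a library and in 50 of 688 other values. Groups of 2 and 3 libraries limited what could be called, and WT+P and WT+R had no replicate 3. A fit that left 1 library in a group assumed that it varies like the others.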
